A study of Mus musculus with 16 samples.

Results

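Zbp1, Ripk1, Ripk3, Mlkl, Casp8, Cflar and Fadd, the genes of the necroptosis pathway and of the caspase-8 complex that holds it back, were followed in bone marrow-derived dendritic cells (BMDCs). They were taken by symbol from the deposited gene table, and all 7 were found among its 23356 genes. BMDCs had been grown for 6 days from bone marrow with GM-CSF and IL-4, and were then left untreated (NT) or given c-di-GMP (CDG) at 25 µg/ml for 18 h, as the labels state. The mice were on the C57BL/6 background and were wild-type (WT), Tmem173-/-, which lack STING, Irf1-/-, or Irf3/7-/-, which carry both the Irf3 and the Irf7 deletion. Each of the 8 combinations of genotype and treatment was sequenced as 2 samples, 16 in all. No sort followed the culture: the floating and loosely attached cells were used.

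The table holds 1 value per gene and condition, the FPKM (fragments scaled to transcript length and to the depth of the library), into which Cuffdiff had combined the 2 samples, with a lower and an upper confidence bound. The replicates of these 8 conditions were given only in combined form, so no SD could be given and no test over replicates could be run. The bounds in parentheses below are the deposited ones, and they carry the error that Cuffdiff estimated. For the 7 genes the bounds lay, on average of both sides, between 22.6% and 40.6% of the FPKM away from it, and they were widest for Zbp1. The number of reads per sample was unknown. A gene was called higher or lower where its FPKM differed by more than 2-fold, the deposited intervals of both conditions did not overlap, and at least one condition reached 1 FPKM. All 7 genes could be judged in each of the 11 comparisons.

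STING is an adaptor of the endoplasmic reticulum that binds cyclic dinucleotides such as the bacterial c-di-GMP, and it turns on TBK1, IRF3, NF-κB and type I interferon. ZBP1 senses Z-form nucleic acids and passes the signal to RIPK3 through a shared motif, the RHIM, which RIPK1 carries too. RIPK3 phosphorylates MLKL, which then breaks the plasma membrane, and this lytic death is called necroptosis. FADD recruits caspase-8, which cleaves RIPK1 and RIPK3, and cFLIP, the product of Cflar, pairs with caspase-8 and sets whether it drives apoptosis or only restrains necroptosis. Zbp1 and Mlkl are known as interferon-inducible genes, and Cflar as a target of NF-κB.

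The 4 genotypes were checked against the genes that had been removed. Tmem173 stood at 8.97 (6.62 to 11.3) and 7.49 FPKM (5.51 to 9.45) in untreated and treated Tmem173-/- BMDCs, while the 6 conditions of the other genotypes ran from 77.0 to 118 FPKM. Irf7 stood at 1.07 FPKM without and at 4.97 FPKM with c-di-GMP in Irf3/7-/- BMDCs, against 15.2 and 687 FPKM in WT. Irf3 was at 7.74 FPKM (5.55 to 9.96) in untreated Irf3/7-/- BMDCs but at 20.2 FPKM (14.8 to 25.7) in the treated ones, where WT had 15.8 FPKM (11.6 to 20.0), so that the treated condition labelled Irf3/7-/- went against its label for Irf3 and not for Irf7. Irf1 was at 25.9 FPKM (19.0 to 33.3) and 116 FPKM (82.8 to 149) in untreated and treated Irf1-/- BMDCs, against 149 and 245 FPKM in WT. It was as low in Tmem173-/- BMDCs, at 24.1 (17.9 to 30.3) untreated and 23.3 FPKM (17.1 to 29.5) treated. The untreated level of Irf1 thus did not tell Irf1-/- from Tmem173-/- BMDCs. A value per gene also counts reads from exons that a deletion leaves in place, so it cannot show by itself whether a functional transcript was made. All 6 dendritic cell markers, among them Itgax, Cd74 and Zbtb46, reached 1 FPKM in every condition, Flt3 only narrowly, at 1.17 FPKM in treated WT BMDCs. Their levels differed between genotypes. H2-Ab1 was lower in Irf1-/- than in WT BMDCs, at 278 against 650 FPKM untreated and 331 against 890 FPKM treated. Itgax was higher in Irf1-/- BMDCs, at 369 against 210 FPKM untreated and 255 against 135 FPKM treated.

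The genes lie apart on 6 chromosomes of the GRCm38 build, on which the deposited loci fall: Zbp1 at chr2:173206612-173218922, Ripk1 at chr13:34002874-34035170, Ripk3 at chr14:55784995-55788857, Mlkl at chr8:111311800-111337903 and Fadd at chr7:144578323-144582436. Cflar (chr1:58713286-58758882) and Casp8 (chr1:58795374-58847503) are neighbours on the plus strand, 36.5 kb apart with 0 genes of the table between them. No other gene of the table overlapped any of the 7 loci. In the GENCODE annotation of that build, Fadd overlaps the antisense gene Faddos, Ripk1 the pseudogenes Gm17083 and Gm17084, Mlkl the pseudogene Gm45712 and Casp8 the unclassified Gm37760. The kit kept the strand, and the methods name a strand-specific setting for Seqmonk but none for Cuffdiff, so it is not known whether reads of Faddos count towards the FPKM of Fadd.

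The promoters of 4 of the genes are shown to set the genes that responded to c-di-GMP (Mlkl and Cflar) beside those that were not called (Ripk3 and Ripk1). They are RefSeq sequences of the build GRCm38.p6, each read on the gene's own strand from 250 bases before the transcription start to 30 bases after it. Capitals mark the letters GAAANNGAA, the core of an interferon-stimulated response element (ISRE), on either strand, and TTCNNNGAA, the interferon-gamma activated site (GAS), which reads the same on both strands. Each promoter of the RefSeq set was searched over the whole window of 300 bases. Of all 32851, 8.56% held the ISRE core, 8.30% the GAS and 4.77% the letters GGANTTCC, taken for NF-κB. These letters were matched exactly, so NF-κB sites of other letters or another length were missed.
Mlkl, chr8:111338176-111338455, minus strand: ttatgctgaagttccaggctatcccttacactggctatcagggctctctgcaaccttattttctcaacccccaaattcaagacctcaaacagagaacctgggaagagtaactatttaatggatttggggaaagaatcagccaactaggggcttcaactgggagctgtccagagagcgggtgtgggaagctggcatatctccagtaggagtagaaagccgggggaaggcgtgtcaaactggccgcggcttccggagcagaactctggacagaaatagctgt
Cflar, chr1:58711241-58711520, plus strand: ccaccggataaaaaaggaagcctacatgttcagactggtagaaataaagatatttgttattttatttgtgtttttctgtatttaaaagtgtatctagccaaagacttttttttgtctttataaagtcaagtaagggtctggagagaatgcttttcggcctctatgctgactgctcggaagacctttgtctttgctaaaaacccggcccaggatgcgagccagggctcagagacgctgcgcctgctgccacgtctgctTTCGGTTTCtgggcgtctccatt
Ripk3, chr14:55788828-55789107, minus strand: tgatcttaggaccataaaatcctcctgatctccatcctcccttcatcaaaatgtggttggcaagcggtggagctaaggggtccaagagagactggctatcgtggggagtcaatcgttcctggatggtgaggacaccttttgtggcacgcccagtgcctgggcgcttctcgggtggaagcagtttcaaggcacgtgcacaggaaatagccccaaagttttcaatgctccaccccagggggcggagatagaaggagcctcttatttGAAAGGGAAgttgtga
Ripk1, second start, chr13:34002624-34002903, plus strand: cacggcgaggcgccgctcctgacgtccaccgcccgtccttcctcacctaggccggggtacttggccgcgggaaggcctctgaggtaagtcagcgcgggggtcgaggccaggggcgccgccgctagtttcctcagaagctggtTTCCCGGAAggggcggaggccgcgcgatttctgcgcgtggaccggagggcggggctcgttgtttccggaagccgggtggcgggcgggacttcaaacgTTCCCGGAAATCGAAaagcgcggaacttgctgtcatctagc
In these windows the ISRE core was found in Cflar (bases 258 to 266, on the opposite strand), in Ripk3 (bases 265 to 273) and at the second start of Ripk1 (bases 246 to 254). The Ripk1 window also held the GAS letters at bases 143 to 151 and at bases 240 to 248, and the latter match overlaps its ISRE core. Mlkl, Casp8, Fadd and the first start of Ripk1 held none of the 3 motifs as spelled here, and the RefSeq set held no entry for Zbp1. Whether these windows or that of Cflar hold NF-κB sites of other letters was not searched. The RefSeq starts of Mlkl and Cflar lie 302 and 1795 bases upstream of the deposited loci, and that of Casp8 lies inside its locus. The ISRE core was thus in 1 of the 2 genes with an entry that were called in a comparison and in 2 of the 4 that were not, beside 9.76% of all 27025 genes of the set, a description of letters that says nothing about the binding of a factor.

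The response to c-di-GMP was first asked within each genotype. Zbp1, Mlkl and Cflar rose in WT BMDCs, in Irf1-/- BMDCs and in those labelled Irf3/7-/-, and none of the 7 genes was called in Tmem173-/- BMDCs. The kinase genes Ripk1 and Ripk3, the adaptor gene Fadd and Casp8 were called in no comparison. Zbp1, the sensor, was at 111 FPKM (75.9 to 146) in untreated WT BMDCs and at 264 FPKM (177 to 372) in treated ones. It was at 20.6 (13.5 to 27.8) and 18.3 FPKM (11.6 to 25.0) in Tmem173-/- BMDCs, and it went from 20.0 (12.5 to 28.8) to 219 FPKM (150 to 315) in Irf1-/- BMDCs and from 82.4 (52.9 to 116) to 289 FPKM (199 to 411) in Irf3/7-/- BMDCs. The treated value lay above the untreated one, with no overlap of the intervals, in the 3 genotypes that have STING and not in Tmem173-/-. On the log2(FPKM + 0.1) scale, on which all log2 differences below are given, the rise was 1.24 in WT, 3.44 in Irf1-/- and 1.81 in Irf3/7-/- BMDCs, against -0.17 in Tmem173-/- BMDCs.

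**Figure D1:**
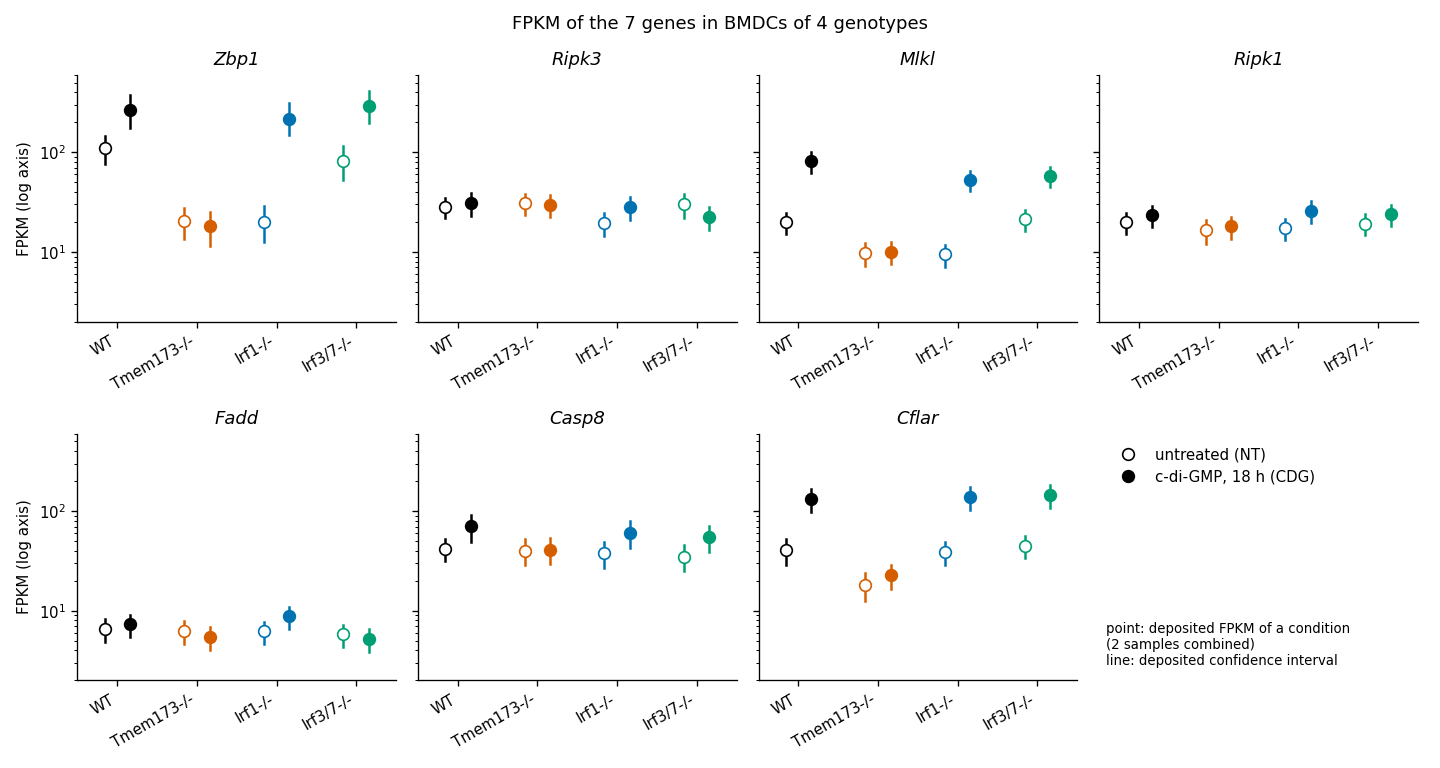
FPKM on a log axis for each of the 7 genes in the 8 conditions; open circles are untreated and filled circles c-di-GMP-treated BMDCs, the lines are the deposited confidence intervals, and each point combines 2 samples. Zbp1, Mlkl and Cflar are high in the 3 treated genotypes other than Tmem173-/-, while Ripk1, Ripk3 and Fadd stay within 1.67-fold over all 8 conditions.

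Mlkl, the pore-forming pseudokinase, was at 19.9 FPKM (15.2 to 24.6) in untreated and at 81.4 FPKM (62.0 to 101) in treated WT BMDCs. In Irf1-/- BMDCs it went from 9.46 (7.10 to 11.8) to 53.2 FPKM (40.8 to 65.7), and in Irf3/7-/- BMDCs from 21.5 (16.3 to 26.6) to 58.0 FPKM (44.5 to 71.4). Without STING it was at 9.66 (7.15 to 12.2) and 10.0 FPKM (7.50 to 12.6). The rises of Mlkl were 2.03, 2.48 and 1.43 on the log2 scale in WT, Irf1-/- and Irf3/7-/- BMDCs, and its intervals before and after treatment overlapped only in Tmem173-/- BMDCs.

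Ripk3, the kinase that phosphorylates MLKL, was at 28.2 FPKM (21.9 to 34.6) in untreated and 31.2 FPKM (23.1 to 39.3) in treated WT BMDCs. Its treated minus untreated log2 difference was 0.14 in WT, 0.54 in Irf1-/-, -0.42 in Irf3/7-/- and -0.06 in Tmem173-/- BMDCs, and the intervals overlapped in each. Ripk1, the RHIM kinase that acts upstream of both forms of death, ran from 16.5 FPKM in untreated Tmem173-/- to 25.9 FPKM in treated Irf1-/- BMDCs, with WT at 19.8 and 23.4 FPKM. The largest Ripk1 difference within a genotype was the 0.57 (95% interval 0.07 to 1.07) of Irf1-/- BMDCs, under 2-fold and with overlapping deposited intervals.

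Fadd, the adaptor, was the lowest of the 7 genes in each condition, at 5.26 to 8.77 FPKM, and was at 6.56 FPKM in untreated and 7.32 FPKM in treated WT BMDCs. Casp8 was at 42.1 (31.9 to 52.2) and 70.3 FPKM (49.5 to 92.1) in untreated and treated WT BMDCs. The log2 difference of Casp8 was 0.74 (95% interval 0.17 to 1.31) in WT, 0.67 (0.05 to 1.28) in Irf1-/- and 0.65 (0.03 to 1.27) in Irf3/7-/- BMDCs, so the propagated interval left out 0 in these 3 genotypes, but the difference was under 2-fold and the deposited intervals overlapped. Casp8 in Tmem173-/- BMDCs was at 39.6 and 40.9 FPKM, a difference of 0.05 (-0.57 to 0.67).

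Cflar, the caspase-8 regulator, was at 40.6 FPKM (29.1 to 52.0) in untreated and 133 FPKM (97.4 to 168) in treated WT BMDCs. It went from 38.8 (28.9 to 48.7) to 138 FPKM (102 to 174) in Irf1-/- and from 44.9 (33.6 to 56.2) to 145 FPKM (107 to 183) in Irf3/7-/- BMDCs, and it was at 18.2 (12.6 to 23.8) and 22.6 FPKM (16.4 to 28.8) in Tmem173-/- BMDCs. The rises of Cflar, 1.71, 1.83 and 1.69 on the log2 scale, lay close together in the 3 genotypes that responded.

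Against all genes of the table, 3 of the 7 genes were called higher in WT BMDCs, where 10.5% of the 11201 genes judged were. The same count was 3 of 7 in Irf1-/- BMDCs, where 9.67% were called higher, and 3 of 7 in Irf3/7-/- BMDCs, where 10.2% were. No gene of the 7 was called in Tmem173-/- BMDCs (0 of 7), and 0.0552% of genes, 6 of 10867, were called in either direction. The median log2 difference of the 7 genes was 0.74 in WT BMDCs, beside 0.00 over all genes judged, and 0.05 beside -0.02 in Tmem173-/- BMDCs.

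**Figure D2:**
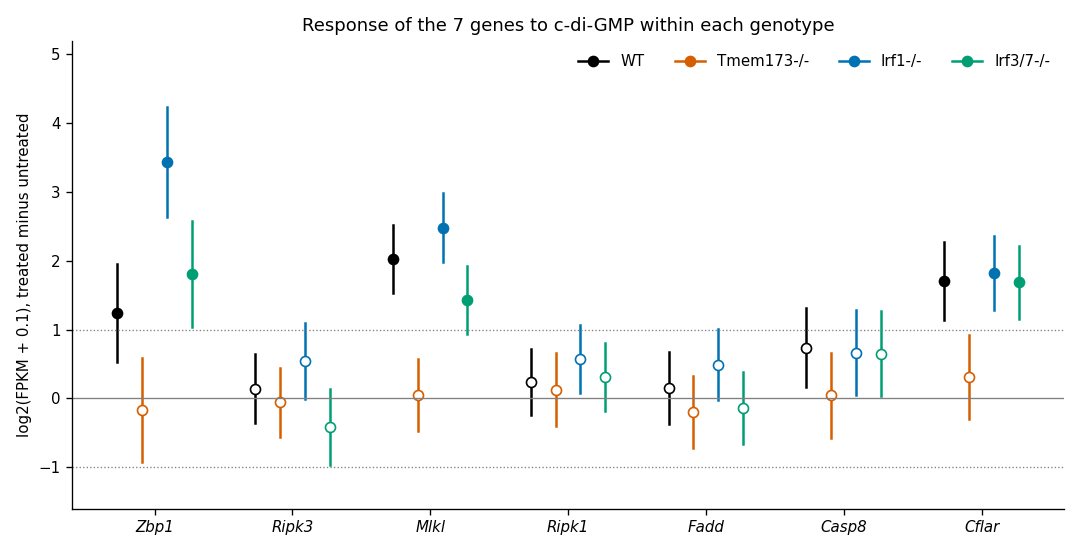
Treated minus untreated difference on the log2(FPKM + 0.1) scale for the 7 genes in the 4 genotypes; lines are 95% intervals propagated from the deposited bounds, filled circles mark called differences, open circles those not called, and dotted lines mark 2-fold. Zbp1, Mlkl and Cflar are filled in WT, Irf1-/- and Irf3/7-/-, and every Tmem173-/- circle is open.

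Whether the responses themselves differed from that in WT was then asked from the difference of both log2 differences, with a 95% interval propagated from the 4 deposited intervals. The 3 knockouts share the WT conditions in this. For Tmem173-/- against WT this difference was -1.98 (-2.70 to -1.26) for Mlkl, -1.41 (-2.45 to -0.37) for Zbp1 and -1.39 (-2.23 to -0.55) for Cflar. These 3 of the 7 intervals lay below 0, and over all genes 29.2% of intervals left out 0 in one direction or the other. In Irf1-/- BMDCs 1 of 7 intervals left out 0, that of Zbp1 at 2.20 (1.12 to 3.27), where 7.14% of genes did. The larger response of Zbp1 in Irf1-/- BMDCs went with a lower untreated level, 20.0 against 111 FPKM, and with treated levels of 219 and 264 FPKM whose intervals overlapped. In Irf3/7-/- BMDCs 0 of 7 intervals left out 0, where 8.76% of genes did, and the one farthest from 0 was that of Mlkl at -0.60 (-1.29 to 0.09). For Cflar the interval ran from -0.66 to 0.91 in Irf1-/- and from -0.80 to 0.77 in Irf3/7-/- BMDCs, so differences in response of over 1.5-fold remain possible there in either direction.

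The treated knockouts were next set against treated WT BMDCs. Treated Tmem173-/- BMDCs had 3 of the 7 genes lower, where 13.5% of genes were: Zbp1 by 14.4-fold, Mlkl by 8.14-fold and Cflar by 5.86-fold. Casp8 was 1.72-fold lower there, a log2 difference of -0.78 (-1.40 to -0.16), with overlapping deposited intervals, and Ripk3 differed by -0.07 (-0.60 to 0.46). The median log2 difference of the 7 genes was -0.78 there, beside 0.02 over all genes judged. In treated Irf1-/- BMDCs 0 of 7 genes were called, where 7.56% of genes were, and in the treated condition labelled Irf3/7-/- 0 of 7 were, where 7.30% were. The largest difference from WT in both was that of Mlkl, at -0.61 (-1.10 to -0.12) in Irf1-/- and -0.49 (-0.98 to -0.00) in Irf3/7-/- BMDCs, each under 2-fold. Zbp1 differed from WT by -0.27 (-1.03 to 0.49) in treated Irf1-/- and by 0.13 (-0.62 to 0.88) in treated Irf3/7-/- BMDCs. Treated Irf1-/- and Irf3/7-/- BMDCs were also set against each other, and 0 of 7 genes were called, where 9.84% of genes were. Fadd differed most, being 0.73 (0.21 to 1.25) higher in Irf1-/-, with deposited intervals of 6.58 to 10.9 and 3.89 to 6.62 FPKM that still overlapped.

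**Figure D3:**
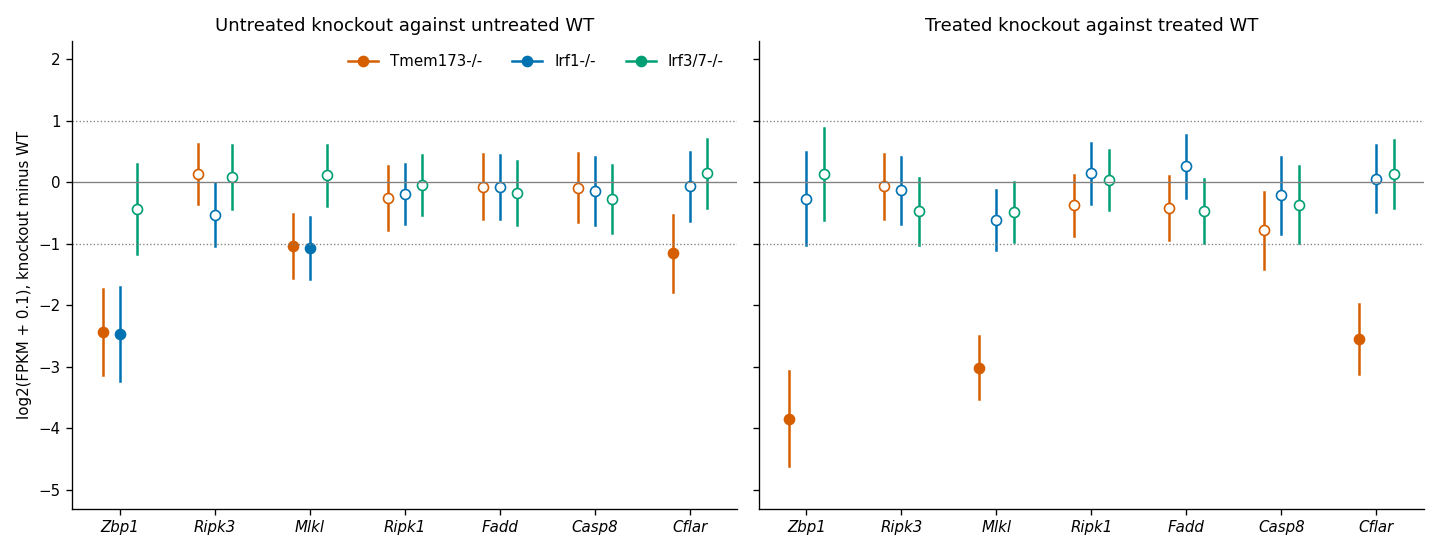
Knockout minus WT difference on the log2(FPKM + 0.1) scale for untreated (left) and treated (right) BMDCs; lines are 95% intervals propagated from the deposited bounds, filled circles are called, and dotted lines mark 2-fold. Zbp1, Mlkl and Cflar are lower in Tmem173-/- on both sides, and for Irf1-/- Zbp1 and Mlkl are called lower on the untreated side and not on the treated side.

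Untreated BMDCs already differed. Untreated Tmem173-/- BMDCs had 3 of the 7 genes lower than WT, where 5.95% of genes were: Zbp1 at 20.6 against 111 FPKM, Cflar at 18.2 against 40.6 FPKM and Mlkl at 9.66 against 19.9 FPKM. In Irf1-/- BMDCs 2 of 7 were lower, where 3.52% of genes were: Zbp1 at 20.0 FPKM, a 5.56-fold difference, and Mlkl at 9.46 FPKM, a 2.10-fold difference. The Mlkl differences, 2.06-fold in Tmem173-/- and 2.10-fold in Irf1-/- BMDCs, were just past the 2-fold limit. Cflar did not follow in Irf1-/- BMDCs, where it differed from WT by -0.06 (-0.63 to 0.50). In untreated Irf3/7-/- BMDCs 0 of 7 genes were called, where 2.04% of genes were, and Zbp1 was at 82.4 (52.9 to 116) against 111 FPKM (75.9 to 146).

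The summed markers of T cells and of NK cells were low in the same untreated genotypes as Zbp1 and Mlkl. Cflar was low with them in Tmem173-/- but not in Irf1-/- BMDCs. The 5 T cell markers found in the table (Cd3e, Cd3d, Cd3g, Cd247 and Lck) summed to 50.0 FPKM in WT and 66.0 FPKM in Irf3/7-/- untreated BMDCs, with all 5 at 1 FPKM or more, and to 0.958 FPKM in Tmem173-/- and 4.53 FPKM in Irf1-/- BMDCs, with 0 and 2 of 5 at 1 FPKM or more. The 6 NK cell markers (Ncr1, Klrb1c, Klrk1, Gzma, Prf1 and Eomes) summed to 366 and 339 FPKM in untreated WT and Irf3/7-/- BMDCs, nearly all of it the granzyme gene Gzma, and to 3.91 and 7.88 FPKM in Tmem173-/- and Irf1-/- BMDCs. Gzma was listed at 0 in both Tmem173-/- conditions, and Ncr1, the defining NK receptor, was under 1 FPKM in all 8 conditions. Klrk1 went the other way, at 3.83 FPKM in untreated Tmem173-/- against 2.98 FPKM in untreated WT BMDCs. It made up most of the NK cell sum of untreated Tmem173-/- BMDCs. The part of such cells in the lower untreated Zbp1 and Mlkl was not tested. After c-di-GMP, T cell markers summed to 9.65 FPKM and NK cell markers to 10.3 FPKM in Irf1-/- BMDCs, against 36.6 and 341 FPKM in WT, while Zbp1 reached 219 and 264 FPKM. In treated Irf3/7-/- BMDCs these sums were 117 and 929 FPKM. Most of the T cell sum of treated Irf1-/- BMDCs was Lck, at 6.16 FPKM, while Cd3e, Cd3d and Cd3g were each under 1 FPKM. The 4 neutrophil markers found summed to 18747 and 13534 FPKM in untreated and treated Tmem173-/- BMDCs, mostly S100a8 and S100a9, and to between 1357 and 3887 FPKM in the other 6 conditions, and the 4 macrophage markers to 428 and 405 FPKM against 143 to 254 FPKM. Of the other neutrophil markers, Mpo was highest in untreated Irf1-/- BMDCs, at 24.7 FPKM, against 19.1 FPKM in untreated Tmem173-/- and 3.70 FPKM in untreated WT. Elane was highest in untreated Tmem173-/- BMDCs, at 40.8 FPKM, against 16.4 FPKM in untreated Irf1-/- and 2.45 FPKM in untreated WT. The macrophage sum of Tmem173-/- BMDCs was mostly Csf1r and Cd68. Mertk was lower there than in WT, at 2.83 against 4.89 FPKM untreated and 3.74 against 16.9 FPKM treated. Fcgr1 was higher untreated, at 29.5 against 18.3 FPKM, and lower treated, at 29.3 against 40.6 FPKM. The neutrophil and macrophage sums went with the lower Zbp1, Mlkl and Cflar of Tmem173-/- BMDCs, and their part was not tested. In bulk RNA, fewer cells of a type and less RNA per cell cannot be told apart.

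**Figure D4:**
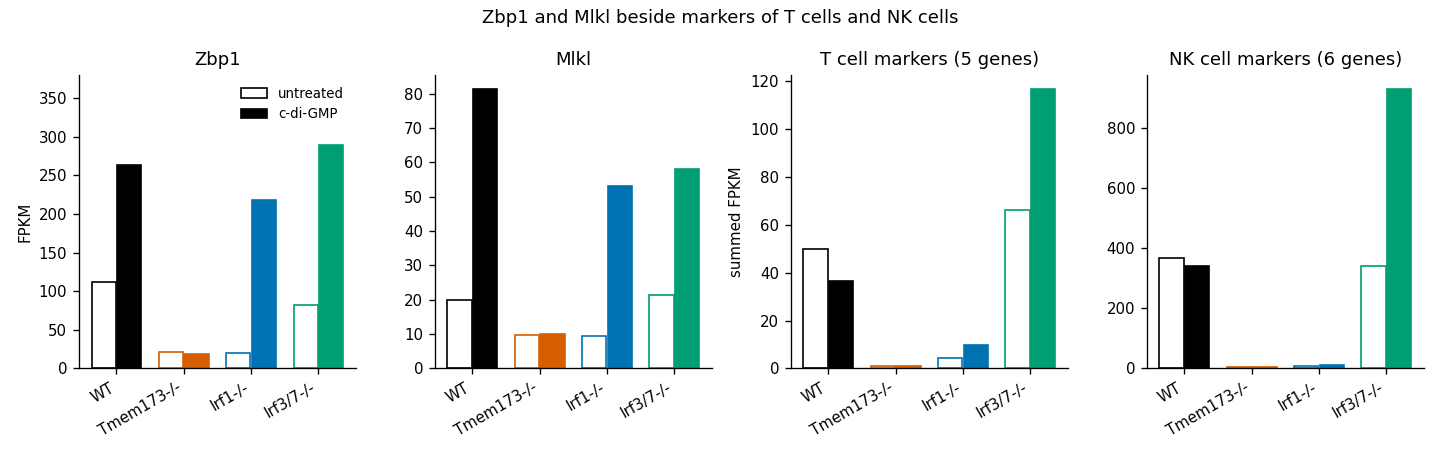
FPKM of Zbp1 and Mlkl and summed FPKM of the T cell and NK cell markers by genotype; open bars are untreated and filled bars c-di-GMP-treated BMDCs, and all axes start at 0. Both marker sums are low in Tmem173-/- and Irf1-/-, where untreated Zbp1 and Mlkl are low, and they remain low in treated Irf1-/-, where Zbp1 reaches 219 FPKM.

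Over the 8 conditions, Zbp1 fell into 3 blocks. Treated Irf3/7-/-, WT and Irf1-/- BMDCs came first with overlapping intervals, untreated WT and Irf3/7-/- BMDCs followed, and untreated Tmem173-/-, untreated Irf1-/- and treated Tmem173-/- BMDCs came last, at 18.3 to 20.6 FPKM. Mlkl had the same 3 blocks of conditions. Cflar differed in that untreated Irf1-/- BMDCs stood with untreated WT and Irf3/7-/- BMDCs, which left both Tmem173-/- conditions alone at the bottom. Of the 28 pairs of conditions, 21 had separate intervals for Zbp1, 21 for Mlkl, 21 for Cflar, 2 for Casp8 and 0 for Ripk1, Ripk3 and Fadd. From the lowest to the highest condition the levels spanned 15.8-fold for Zbp1, 8.61-fold for Mlkl, 7.99-fold for Cflar, 2.02-fold for Casp8, 1.67-fold for Fadd, 1.59-fold for Ripk3 and 1.57-fold for Ripk1.

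As FPKM is per length, the levels of different genes could be set against each other within a condition. Zbp1 stood at 3.95 times the level of its partner Ripk3 in untreated and at 8.45 times in treated WT BMDCs, against 0.665 and 0.614 times in Tmem173-/- and 1.03 and 7.69 times in Irf1-/- BMDCs. Mlkl was below its kinase Ripk3 in untreated WT BMDCs, at a ratio of 0.704 (95% interval 0.504 to 0.982), and above it after treatment, at 2.61 (1.82 to 3.74). The treated ratio of Mlkl to Ripk3 was 1.87 in Irf1-/-, 2.58 in Irf3/7-/- and 0.336 in Tmem173-/- BMDCs. Cflar and Casp8 stood at a ratio of 0.963 (0.658 to 1.41) in untreated and 1.88 (1.25 to 2.85) in treated WT BMDCs. Cflar in Tmem173-/- BMDCs was below Casp8 in both conditions, at ratios of 0.458 (0.295 to 0.713) and 0.553 (0.366 to 0.835). Ripk3 and Ripk1 kept to ratios between 0.935 and 1.88 throughout.

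**Figure D5:**
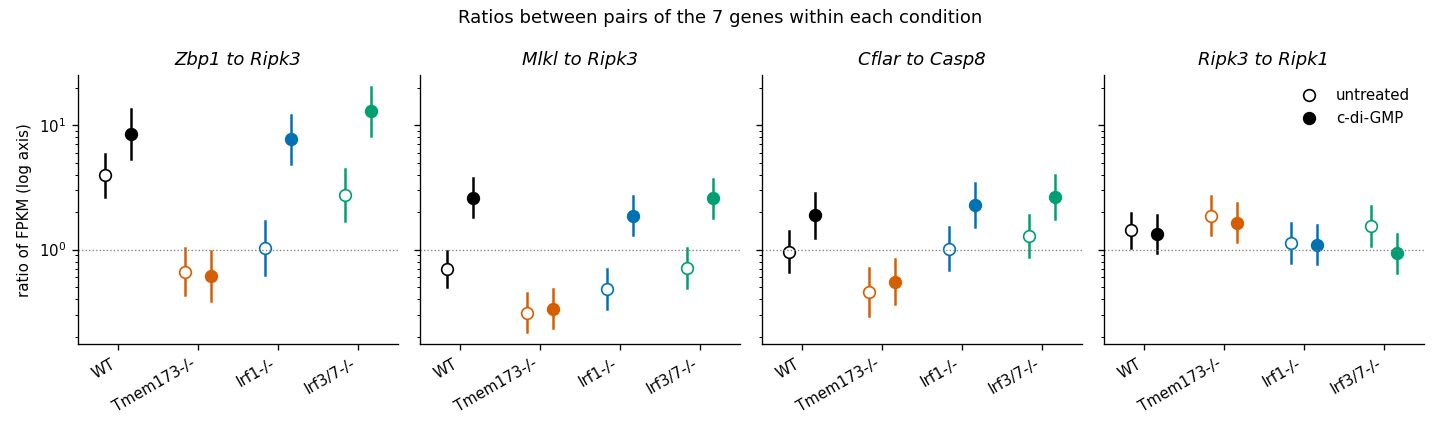
Ratio of FPKM on a log axis for 4 pairs of genes in the 8 conditions; open circles are untreated and filled circles treated BMDCs, lines are 95% intervals propagated from the deposited bounds, and the dotted line marks equal levels. The points of Mlkl to Ripk3 go from below to above 1 upon treatment in WT, Irf1-/- and Irf3/7-/-. In untreated Irf3/7-/- the interval, 0.495 to 1.03, holds 1. In Tmem173-/- the ratio is 0.312 and 0.336.

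The pathway around the 7 genes was described from a list of 45 further genes in 4 groups, of which 44 were found in the table. In WT BMDCs 11 of 44 were called higher after c-di-GMP, where 10.5% of all genes were, and 0 lower. Of the 12 death ligands, receptors and sensors, 6 rose: Tlr3, the endosomal sensor of double-stranded RNA, from 0.606 to 6.77 FPKM, Tnfsf10, which encodes the death ligand TRAIL, from 4.03 to 16.2 FPKM, Ifnar2, a chain of the type I interferon receptor, from 26.1 to 57.5 FPKM, the death receptor gene Fas from 13.9 to 29.3 FPKM, Tnf from 44.6 to 91.1 FPKM, and Adar, whose product edits the RNA that ZBP1 would otherwise sense, from 28.5 to 60.3 FPKM. Of the 18 adaptors and ubiquitin enzymes that control RIPK1, 4 rose: Tnfaip3, which encodes the deubiquitinase A20, from 34.4 to 114 FPKM, its partner Tnip1 from 40.1 to 108 FPKM, Rnf31, a subunit of the linear ubiquitin ligase, from 16.6 to 58.8 FPKM, and Tbk1 from 25.8 to 56.9 FPKM. Of the 10 modifiers of RIPK3 and MLKL and genes of membrane repair, 1 was called, about the share over all genes: Chmp4b, an ESCRT subunit that sheds damaged membrane, from 173 to 406 FPKM.

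In Tmem173-/- BMDCs 0 of the 41 pathway genes judged were called. In Irf1-/- BMDCs 8 of 43 rose, where 9.67% of all genes did. Tnf, Ifnar2 and Tnip1 of the WT list were not among the 8, and Tnip1, at 42.6 (29.9 to 57.3) and 84.8 FPKM (58.6 to 114), missed the 2-fold limit narrowly. In Irf3/7-/- BMDCs 11 of 44 rose, where 10.2% of all genes did, with Tnf going from 83.1 (62.4 to 104) to 355 FPKM (266 to 443). Fas, Tnfsf10, Tlr3, Adar, Rnf31, Tnfaip3 and Chmp4b were called higher in all 3 genotypes that responded. Against treated WT, 12 of 44 pathway genes were lower in Tmem173-/-, where 13.5% of all genes were, among them Rnf31 at 9.02 against 58.8 FPKM and Tnfaip3 at 24.4 against 114 FPKM. In treated Irf1-/- BMDCs 4 of the 12 death ligands, receptors and sensors were lower than in WT: Fasl at 0.110 against 2.65 FPKM, Tnfsf10 at 6.27 against 16.2 FPKM, Tlr3 at 2.75 against 6.77 FPKM, and Tlr4 at 10.5 against 32.5 FPKM. In treated Tmem173-/- BMDCs Fasl was at 0.0240 FPKM. Fasl, the Fas ligand, is made mainly by T and NK cells, whose summed markers were low in the same genotypes. The part of such cells in the lower Fasl was not tested. In the treated condition labelled Irf3/7-/-, Tnf and Fasl (8.49 FPKM) were higher and Tlr3 (2.37 FPKM) lower than in WT.

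The genes whose profile over the 8 conditions lay nearest were sought among 7382 genes that reached 10 FPKM in at least one condition, by the root mean square difference of the mean-centred log2 values. Those nearest to Zbp1 were H2-Q4 (0.29), Irgm2 (0.31), Nlrc5 (0.34), Parp14 (0.35) and Enpp4 (0.36). H2-Q4 ran from 77.3 to 334 FPKM in WT, from 22.0 to 178 FPKM in Irf1-/- and from 25.0 to 20.8 FPKM in Tmem173-/- BMDCs, while in Irf3/7-/- BMDCs it ran from 81.7 to 252 FPKM. Those nearest to Mlkl were Tapbp (0.12), Parp10 (0.15) and H2-K1 (0.17), and those nearest to Cflar were Abtb2 (0.15), Csrnp1 (0.16) and Cd86 (0.17), the gene of a costimulatory ligand. Among the called genes, Mlkl and Cflar lay 0.37 apart, Zbp1 and Mlkl 0.57 apart and Zbp1 and Cflar 0.74 apart. The closest pair of the 7 genes was Ripk1 and Casp8, at 0.19, neither of which was called in any comparison. These are descriptions over 8 conditions that share genotypes and treatment.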

How the data were processed

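Poly(A) RNA of 16 BMDC samples (2 per condition) was sequenced from stranded TruSeq libraries. The authors had combined the replicates with Cuffdiff (version 1.06 in the submitters' processing notes) into FPKM per gene and condition, and the deposited table holds these FPKM values with lower and upper confidence bounds. The notes name mm9, but 98.953% of the gene loci overlap the GRCm38 gene of the same name; for aligner and annotation, nothing is stated in the sources used here. The labels state 25 µg/ml of c-di-GMP, while figure legends of the study name a higher dose for these cells. A further 4 columns, of a knockout condition with no labelled sample, were not used.

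Differences were taken on log2(FPKM + 0.1). Calls needed over 2-fold, separate deposited intervals, at least 1 FPKM in one condition and an OK status, across all genes; no p-value was computed. Standard errors were the width of the log2 interval over 2 × 1.96. Scripts (Python 3.11.15, numpy 2.4.6, pandas 2.3.3) were tested on simulated data, and 9 alternatives were tried. Named were the 7 genes, the targeted genes, up to 3 called rises and 3 called falls of each pathway group per comparison, and the nearest profiles (5 for Zbp1, 3 for Mlkl and Cflar). Further called pathway genes (Adar, Fas, Tnf and Tbk1 in WT, Tlr3 in Irf1-/-, and those called in 3 genotypes) were named after their values were seen. These genes and the lists were chosen with earlier results of these data known. No source says that the 2 samples came from separate cultures or animals, so the intervals may cover technical spread alone. Promoters came from the RefSeq set of GRCm38.p6 (6 of the 7 genes matched); proteins were not analysed here, and the results of a few pathway genes are not reported here.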

Additional observations from a re-analysis of the deposited data

Results flagged for a closer look

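In 4 instances the response of a gene to c-di-GMP differed between a knockout and WT, in that the 95% interval of the difference of the log2 responses left out 0. For Tmem173-/- these were Mlkl (-1.98), Zbp1 (-1.41) and Cflar (-1.39), each a smaller response than in WT. Over all genes, 29.2% of intervals left out 0 in that comparison, in either direction. For Irf1-/- it was Zbp1 (2.20), a larger response than in WT, where 7.14% of all genes had intervals that left out 0. The intervals rest on the error that Cuffdiff estimated from 2 samples per condition. The summed FPKM of T cell and NK cell markers differed between the same genotypes, and their part in these 4 differences was not tested.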

How the results depend on the processing

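The 11 counts of called genes were recomputed under 9 alternatives, and 94 of 99 were unchanged or within 1.5 times. With a limit of 4-fold, 1 gene (Mlkl) was still called higher in WT, 0 in Irf3/7-/-, and 1 gene (Zbp1) was called lower in untreated Tmem173-/- and 1 (Zbp1) in untreated Irf1-/- BMDCs. With a pseudocount of 1 FPKM, 1 gene (Zbp1) was called in untreated Irf1-/- BMDCs, since Mlkl fell just short of 2-fold, and Mlkl in untreated Tmem173-/- BMDCs, at a log2 difference of -0.97, was also no longer called. Of the 693 single differences 11 lost their call and none turned direction with a call, and the 63 response differences kept their side of 0. No paired analysis was possible because the deposited values combine the replicates of each condition, and for the same reason no replicate could be left out. The intervals of Ripk1, Ripk3, Fadd and Casp8 span 22.6% to 30.4% of the FPKM to each side, and differences under 2-fold were left out by the call rule whatever their intervals.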
